A study of Mus musculus with 12 samples.

Results

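The genes described here are the 37 carried by the mouse mitochondrial genome, found as every row on chrM, all with names starting with mt-. They are 37 of the 55357 genes in the count files, with 13 that encode proteins, 2 that encode ribosomal RNAs and 22 that encode transfer RNAs. Each was measured in 12 RNA-seq libraries of mouse cortex with hippocampal formation, taken at embryonic stage E17.5. The study asked what deletion of Egfr, the epidermal growth factor receptor gene, does to the rostral and the caudal cortex. Knockout embryos are labelled NcreEGFRFF or Nestin-EgfrF/F, so Cre recombinase under the Nestin promoter, which is active in neural progenitors and also in some cells outside the brain, deletes floxed Egfr. Control embryos are EgfrF/+, with 1 floxed and 1 intact allele, and whether they carry Cre is not given in the sources used here. The groups are knockout rostral (replicates 5, 2 and 7), knockout caudal (5, 2 and 7), control rostral (1, 3 and 9) and control caudal (1, 3 and 9), with 3 libraries in each, and the numbers are those that the titles give to the embryos.

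The mitochondrial genome is a small circle present in many copies per cell. Both of its strands are transcribed from end to end into long precursors, and the tRNAs between the other genes mark where these are cut. Its 13 proteins are all subunits of the respiratory chain and ATP synthase. Of these, 7 belong to complex I (the mt-Nd genes), 1 to complex III (mt-Cytb), 3 to complex IV (the mt-Co genes) and 2 to complex V (mt-Atp6 and mt-Atp8), where nuclear genes supply all remaining subunits. Of the protein-coding genes, only mt-Nd6 is read from the opposite strand. Most mitochondrial messenger RNAs carry a short poly(A) tail, so that a library made by mRNA capture contains them. Pieces of mitochondrial DNA have also been copied into the nuclear chromosomes over evolution, and reads from the mitochondrial gene can align to such a copy.

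Such copies bear on which mitochondrial rows of these files hold counts. On GRCm39 chromosome 1, on the minus strand, 7 pseudogenes lie next to each other at chr1:24650616-24655278. The starts of 3 of the mitochondrial genes and of their copies are given first, because no base separates them; capitals mark the start codon. They come from the GENCODE vM21 transcripts (GRCm38), read 5′ to 3′, in which all 7 copies have the length that the count files list.
mt-Co2: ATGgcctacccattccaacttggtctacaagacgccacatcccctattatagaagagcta
Gm28661: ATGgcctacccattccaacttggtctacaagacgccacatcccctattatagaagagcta
mt-Atp6: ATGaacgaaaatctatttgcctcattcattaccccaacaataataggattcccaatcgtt
Gm10925: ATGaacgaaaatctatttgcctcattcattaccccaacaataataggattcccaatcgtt
mt-Co3: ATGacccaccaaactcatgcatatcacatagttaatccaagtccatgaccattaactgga
Gm28437: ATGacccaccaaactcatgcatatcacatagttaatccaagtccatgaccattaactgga

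Over their whole lengths, Gm28661 (681 bases), Gm10925 (678 bases) and Gm28437 (783 bases) differed from their genes at 0 bases. Gm10222 (294 bases) also differed from mt-Nd4l at 0 bases, and Gm28439 (876 bases) from the first 876 bases of mt-Nd4 at 0 bases. The other 2 copies differ from their genes only near the start of the copy, as the next lines show, with the differing bases in capitals. Only reads that cover those bases can tell gene from copy. Gm28438 (345 bases) differed from mt-Nd3 at 1 base, T3C, with positions counted from 1 at the first base of the mitochondrial gene. Gm29216 (492 bases) corresponds to bases 1054 to 1545 of mt-Co1 and differed at 6 bases, T1056A, C1057T, A1059G, A1060G, C1062A and A1066T, all at its start.
mt-Nd3: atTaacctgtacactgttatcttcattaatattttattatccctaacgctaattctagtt
Gm28438: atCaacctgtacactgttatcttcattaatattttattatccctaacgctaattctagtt
mt-Co1: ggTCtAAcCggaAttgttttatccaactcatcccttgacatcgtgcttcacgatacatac
Gm29216: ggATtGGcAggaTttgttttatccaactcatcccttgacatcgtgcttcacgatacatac

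Total counts per library ran from 25223733 to 30383672. Egfr itself stood at 3.60 to 7.33 CPM (counts scaled to a library total of 1000000) in the 6 knockout libraries and at 19.2 to 41.6 CPM in the 6 control libraries, so that the genotypes did not overlap. All 10 cortex markers and 4 hippocampal markers were detected, with summed levels of 2104 to 3306 and 788 to 1709 CPM. Of the hippocampal ones, Wnt8b was as low as 0.0366 CPM (knockout rostral 5). The 10 markers of ventral forebrain and striatum were present too, with sums that varied from 128 to 794 CPM. The titles were less well matched by other transcripts. Sex-linked transcripts together with 5 transcripts that were on or off in a library (above or below 0.5 CPM) matched the 12 libraries into 6 pairs, and 0 of these were the pairs that share a title number. The pairs were knockout rostral 5 with rostral 2, knockout rostral 7 with caudal 5, knockout caudal 2 with caudal 7, control rostral 1 with rostral 3, control rostral 9 with caudal 1, and control caudal 3 with caudal 9. The caudal transcription factor gene Nr2f1 spanned 71.3 to 348 CPM in knockout caudal libraries, against 97.1 to 340 CPM in knockout rostral ones. In controls its span was 58.6 to 373 CPM (caudal), against 50.7 to 348 CPM (rostral). In control rostral 1 and 3, Xist and Y-linked transcripts were present together. Groups below are those of the titles, and comparisons of parts or of titled embryos rest on the titles alone.

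The 37 genes took 2.29%, 2.10% and 7.25% of the counts in knockout rostral libraries 5, 2 and 7, against 1.96%, 1.97% and 2.92% in control rostral libraries 1, 3 and 9. In caudal libraries they took 4.77%, 2.71% and 2.93% in knockout 5, 2 and 7, against 2.53%, 3.17% and 3.53% in control 1, 3 and 9. Knockout rostral 7 was the highest of the 12 and knockout caudal 5 the second, and the other 4 knockout libraries lay within the range of the 6 control libraries. The group means were 3.88% ± 2.92 in knockout rostral, 2.28% ± 0.556 in control rostral, 3.47% ± 1.13 in knockout caudal and 3.08% ± 0.505 in control caudal libraries (SD, n = 3 each). The protein-coding genes made up 90.3% to 92.7% of the mitochondrial counts, the rRNA genes 7.09% to 9.47% and the tRNA genes 0.203% to 0.283%. As shares of the whole library, these classes held 1.78% to 6.61%, 0.149% to 0.619% and 0.00426% to 0.01723% of the counts. In bulk tissue, fewer cells of a type and less RNA per cell cannot be told apart.

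With the 7 copies on chromosome 1 added, the share was 3.77%, 3.50% and 11.8% in knockout rostral libraries 5, 2 and 7, against 3.37%, 3.33% and 4.86% in control rostral libraries 1, 3 and 9. In caudal libraries it was 8.08%, 4.70% and 5.06% in knockout 5, 2 and 7, against 4.35%, 5.27% and 6.01% in control 1, 3 and 9. The copies thus held 38.6% to 42.3% of the sum of mitochondrial and copy counts in each library. The counts alone cannot tell a read of the mitochondrial gene from a read of an identical copy.

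**Figure D1:**
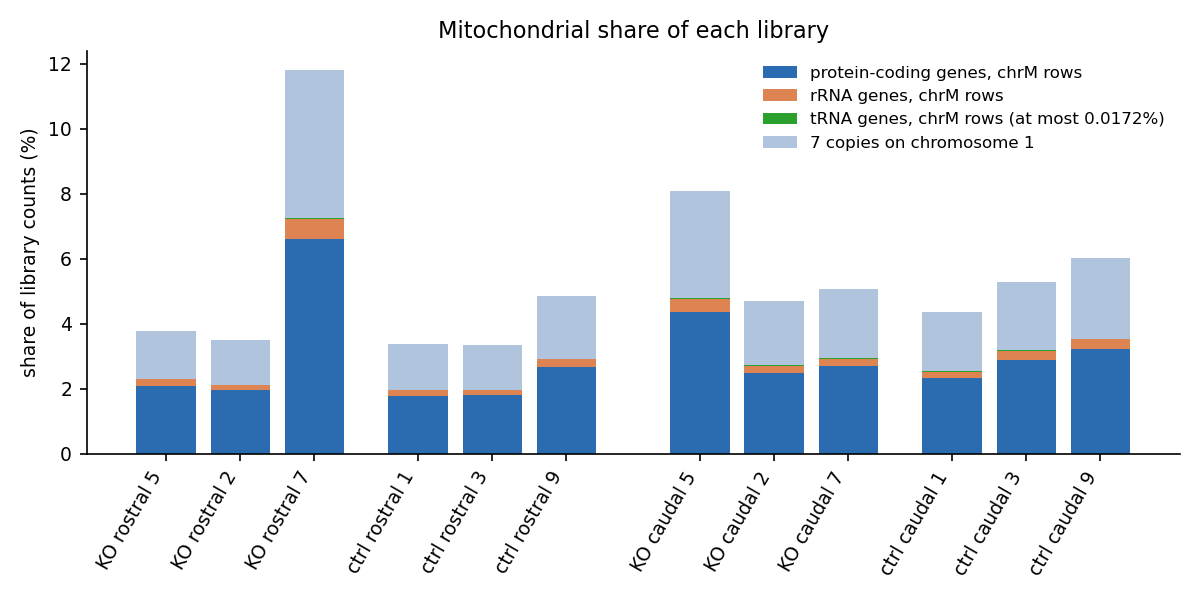
Share of all counts of a library (%, vertical axis) in the chrM protein-coding, rRNA and tRNA rows and in the 7 copies on chromosome 1, stacked, for the 12 libraries named by genotype (KO for knockout, ctrl for control), part and title number. Knockout rostral 7 reaches 11.8% and knockout caudal 5 8.08%, against 3.33% to 6.01% in the other 10 libraries, and the copies add a like part to every bar.

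The protein-coding genes fell into 2 sets by their own rows. Of the 13, 9 genes ran from 57.6 CPM (mt-Nd6, lowest library) to 20867 CPM (mt-Co1, highest library), while mt-Co2, mt-Atp6, mt-Co3 and mt-Atp8 stayed between 0.403 and 12.7 CPM. mt-Co2 (ENSMUSG00000064354.1, chrM:7013-7696), a core subunit of complex IV that takes up electrons from cytochrome c, stood at 4.43, 2.94 and 12.7 CPM in knockout rostral 5, 2 and 7, against 3.55, 3.45 and 6.17 CPM in control rostral 1, 3 and 9. Caudal libraries gave 8.74, 5.03 and 6.13 CPM in knockout 5, 2 and 7, against 4.69, 6.20 and 7.73 CPM in control 1, 3 and 9. As counts, with no correction for length, these were 0.0492% to 0.0731% of those of mt-Co1 in the same library, although both genes lie on 1 precursor and encode partner subunits of complex IV. For mt-Atp6 (chrM:7927-8607), the proton channel subunit of ATP synthase, the share of the mt-Co1 count was 0.0419% to 0.0657%, and for mt-Co3 (chrM:8607-9390) it was 0.0485% to 0.0841%.

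High counts stood in the identical copies instead. Gm28661, the copy of mt-Co2 (ENSMUSG00000102070.2, chr1:24653966-24654646), stood at 3202, 2934 and 10172 CPM in knockout rostral 5, 2 and 7, against 2627, 2829 and 4182 CPM in control rostral 1, 3 and 9. In caudal libraries it stood at 6850, 3942 and 4281 CPM in knockout 5, 2 and 7, against 3492, 4690 and 5144 CPM in control 1, 3 and 9. Knockout rostral 7 and knockout caudal 5 were the highest in this row too. Gm10925 (mt-Atp6) ran from 4627 to 14678 CPM and Gm28437 (mt-Co3) from 3790 to 11509 CPM. Of the counts of gene and copy together, the copy held 99.85% to 99.9% for mt-Co2, 99.92% to 99.95% for mt-Atp6 and 99.87% to 99.92% for mt-Co3.

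The split did not go by identity of sequence alone. Gm10222 and Gm28439 match mt-Nd4l and mt-Nd4 at every base too, yet they held 0.206% to 0.296% and 0.147% to 0.275% of the summed counts. At mt-Nd3, with 1 differing base, the copy held 6.39% to 8.27%. At mt-Co1 the copy held 28.1% to 30.4% of the counts of the whole gene, although Gm29216 corresponds to only 492 of the 1545 bases. If reads fell evenly along mt-Co1, a copy with nearly all reads of those bases would hold a share near this size. How reads fell along the gene was not tested, so this share is not on 1 scale with the others. Per the file headers, a read aligned to several places was counted as a fraction at each, so equal sharing would give gene and copy like counts. Neither the near-complete shift at mt-Co2, mt-Atp6 and mt-Co3 nor the small one at mt-Nd4l and mt-Nd4 was such a sharing, and the cause was not tested.

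A further row was low without a copy of its own. mt-Atp8 (chrM:7766-7969), a small subunit of ATP synthase, lies between mt-Co2 and mt-Atp6 and shares its last 43 bases, in capitals below, with the start of mt-Atp6.
mt-Atp8 end: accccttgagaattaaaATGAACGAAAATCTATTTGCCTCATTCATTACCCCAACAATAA

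It stood at 0.403, 0.420 and 1.66 CPM in knockout rostral 5, 2 and 7, against 0.515, 0.628 and 0.957 CPM in control rostral 1, 3 and 9. Caudal libraries gave 1.14, 1.14 and 1.31 CPM in knockout 5, 2 and 7, against 0.964, 0.824 and 1.00 CPM in control 1, 3 and 9. These levels rest on 11 to 46.5 counts per library. On chromosome 1, between Gm10925 and Gm28661, the copies of its neighbours, lies a gap of 233 bases for which the files have no row. Reads aligned wholly within it are in no count. The gap is not among the transcripts compared here, and whether reads of mt-Atp8 aligned there was not tested. The level of mt-Atp8 is therefore not known from these files, and that of mt-Co2, mt-Atp6 and mt-Co3 only through the copies.

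Less similar copies outside chromosome 1 held fewer counts than the chromosome 1 copies of mt-Co1, mt-Co2, mt-Atp6 and mt-Co3. They did not all hold fewer than the chromosome 1 copies of mt-Nd4l (Gm10222, 1.04 to 4.95 CPM), mt-Nd4 (Gm28439, 4.75 to 22.3 CPM) and mt-Nd3 (Gm28438, 25.1 to 90.0 CPM). On chromosome 2, Gm13340 differs from mt-Co1 at 37 of 1545 aligned bases and ran from 152 to 661 CPM. Gm13341 (mt-Co2) ran from 8.09 to 31.2 CPM, Gm13339 (mt-Nd2) from 12.8 to 49.0 CPM, and Gm4076 on chromosome 13 (mt-Nd5) from 0.344 to 2.11 CPM. The copies outside chromosome 1 were not added to any sum.

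Levels between genes were compared per kilobase of gene length. They also depend on how well the mRNA capture took up each RNA, which was not measured. With gene and copy summed, the order by the median of the 12 libraries began with mt-Atp6 at 9961 CPM per kb (6798 to 21567), mt-Co1 at 7413 (5039 to 19399), mt-Co3 at 6594 (4839 to 14692) and mt-Co2 at 5947 (3845 to 14890). Next came mt-Cytb, the only mitochondrial subunit of complex III, at 4617 CPM per kb (3349 to 13000). Among complex I subunits, mt-Nd1 stood at 3149 (2021 to 7869), mt-Nd4 at 2816 (1936 to 7216), mt-Nd4l at 2480 (1702 to 6241), mt-Nd2 at 1573 (1090 to 4202), mt-Nd3 at 1409 (1086 to 3451) and mt-Nd5 at 1095 CPM per kb (758 to 2927). mt-Nd6 followed at 171 CPM per kb (111 to 478), and mt-Atp8, with the limit above, came last at 4.71 CPM per kb (1.97 to 8.14).

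This order held within libraries far more tightly than those ranges across libraries would show. mt-Atp6 was ranked 1, mt-Cytb 5, mt-Nd4l 8, mt-Nd5 11, mt-Nd6 12 and mt-Atp8 13 in each of the 12 libraries. Neighbours that changed places in at least 1 library were mt-Co1, mt-Co3 and mt-Co2 (ranks 2 to 4), mt-Nd1 and mt-Nd4 (6 and 7), and mt-Nd2 and mt-Nd3 (9 and 10). From the chrM rows alone, mt-Co1 would rank 1, mt-Cytb 2 and mt-Nd1 3, with mt-Co2, mt-Co3 and mt-Atp6 at 10, 11 and 12.

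**Figure D2:**
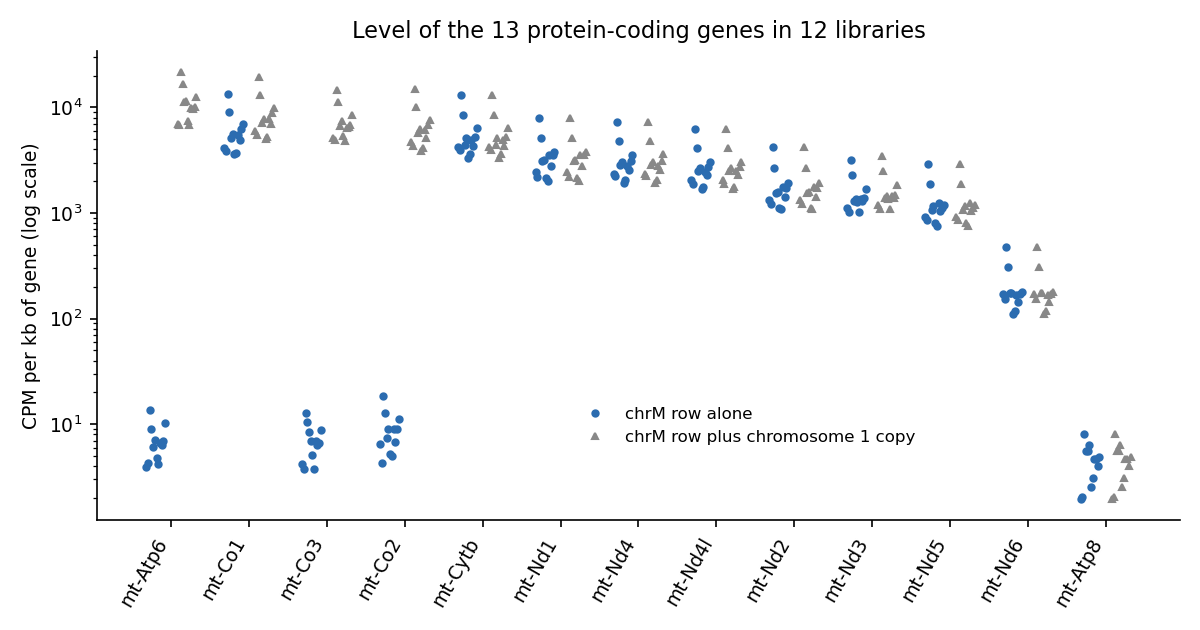
Level of the 13 protein-coding genes as CPM per kb of gene (vertical axis, log scale), in order of the level with copies; each circle (chrM row alone) or triangle (chrM row plus chromosome 1 copy) is 1 of the 12 libraries. mt-Atp6, mt-Co3 and mt-Co2 lie below 20 by their own rows and above 3845 with their copies, and mt-Atp8 has no copy row to add.

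The rRNA genes code for the RNAs of the mitochondrial ribosome. mt-Rnr2 (16S, chrM:1094-2675) stood at 1333, 1082 and 4629 CPM in knockout rostral 5, 2 and 7, against 1354, 1091 and 1930 CPM in control rostral 1, 3 and 9. In caudal libraries it stood at 3007, 1910 and 1799 CPM in knockout 5, 2 and 7, against 1433, 2249 and 2127 CPM in control 1, 3 and 9. mt-Rnr1 (12S, chrM:70-1024) had a lowest and highest level of 409 and 1556 CPM among knockout libraries, against 395 and 761 CPM among control libraries. The count of mt-Rnr2, not corrected for its greater length, was 2.39 times (knockout rostral 5) to 3.87 times (knockout caudal 2) that of mt-Rnr1. Since the library preparation captured mRNA by its tail, these levels do not give the amount of ribosomal RNA in the tissue.

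The tRNA genes gave few counts, with 13 of 22 above 0 in every library and 8 at 10 counts or more in every library. Most tRNA counts, 90.5%, came from 4 genes, namely mt-Tl1 (63.5%), mt-Tw (12.7%), mt-Tm (8.91%) and mt-Ti (5.37%). Their genes are printed because nearly all tRNA counts lie on them, with no letter marked.
mt-Tl1: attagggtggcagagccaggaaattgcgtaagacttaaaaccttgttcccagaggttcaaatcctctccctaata
mt-Tw: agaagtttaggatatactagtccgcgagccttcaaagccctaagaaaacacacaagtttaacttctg
mt-Tm: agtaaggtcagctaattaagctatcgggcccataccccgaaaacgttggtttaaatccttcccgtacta
mt-Ti: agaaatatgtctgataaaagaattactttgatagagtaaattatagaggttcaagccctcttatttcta

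mt-Tl1 (chrM:2676-2750), a leucine tRNA, starts at the base after mt-Rnr2 and ends at the base before mt-Nd1. It stood at 38.6, 27.9 and 107 CPM in knockout rostral 5, 2 and 7, against 29.0, 25.7 and 55.3 CPM in control rostral 1, 3 and 9. Caudal libraries gave 72.1, 41.7 and 41.5 CPM in knockout 5, 2 and 7, against 37.2, 49.9 and 45.1 CPM in control 1, 3 and 9. mt-Tw (tryptophan) averaged 11.9 ± 8.58 CPM in knockout rostral and 7.53 ± 2.50 CPM in control rostral libraries, and 9.89 ± 4.30 CPM in knockout caudal and 8.83 ± 1.55 CPM in control caudal libraries (SD, n = 3 each). mt-Tm (methionine) and mt-Ti (isoleucine) ran from 4.05 to 18.3 CPM and from 2.48 to 8.93 CPM over all libraries. Another 10 tRNA genes stayed under 10 counts in every library, among them 6 of the 8 tRNA genes on the strand that carries mt-Nd6. A fragment that spans a tRNA and its neighbour was divided between them by the counting, so a tRNA count need not stand for a free tRNA.

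The libraries that stood apart did so in nearly all mitochondrial genes with at least 10 counts everywhere. Both were picked by the summed share of these same genes, so the counts below describe them and are no separate support. No share over all genes is given beside them. Knockout rostral 7 was the highest of the 12 libraries for 13 of 13 protein-coding genes, 2 of 2 rRNA genes and 8 of the 8 tRNA genes with at least 10 counts everywhere. Knockout caudal 5 was second for 11 of 13, 2 of 2 and 7 of 8 of these. Relative to the median of the other 10 libraries, the protein-coding genes stood 1.87 to 2.99 times as high in knockout rostral 7 (median 2.66) and 1.28 to 1.94 times as high in knockout caudal 5 (median 1.79). The lowest of these folds were those of mt-Atp8, mt-Co3 and mt-Atp6, 3 of the 4 near-empty rows.

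Of the marker lists, only that of blood summed above all other 10 libraries in both knockout rostral 7 and knockout caudal 5. Sums of the hippocampal, ventral forebrain, choroid plexus and endothelium markers lay within the range of the other 10 libraries in both. The 7 blood markers, mostly globins, summed to 12355 CPM in knockout rostral 7 and 8194 CPM in knockout caudal 5, against 4232 to 7451 CPM in the other 10 libraries. Of these, 5 were highest in knockout rostral 7, while the embryonic globins Hbb-y and Hba-x reached at most 1.31 CPM in every library. The 4 microglia markers summed to 138 CPM in knockout rostral 7 and 97.4 CPM in knockout caudal 5, against 54.3 to 123 CPM elsewhere. The 10 cortex markers were lowest in knockout rostral 7 (2104 CPM), with 2689 CPM in knockout caudal 5 and 2559 to 3306 CPM elsewhere. Muscle markers summed to at most 0.964 CPM, and the 4 measured markers of RNA quality or nuclear RNA summed to 452 CPM in knockout rostral 7 and 259 CPM in knockout caudal 5, against 238 to 727 CPM elsewhere. The part of blood, microglia or cortex content in the mitochondrial levels was not tested.

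**Figure D3:**
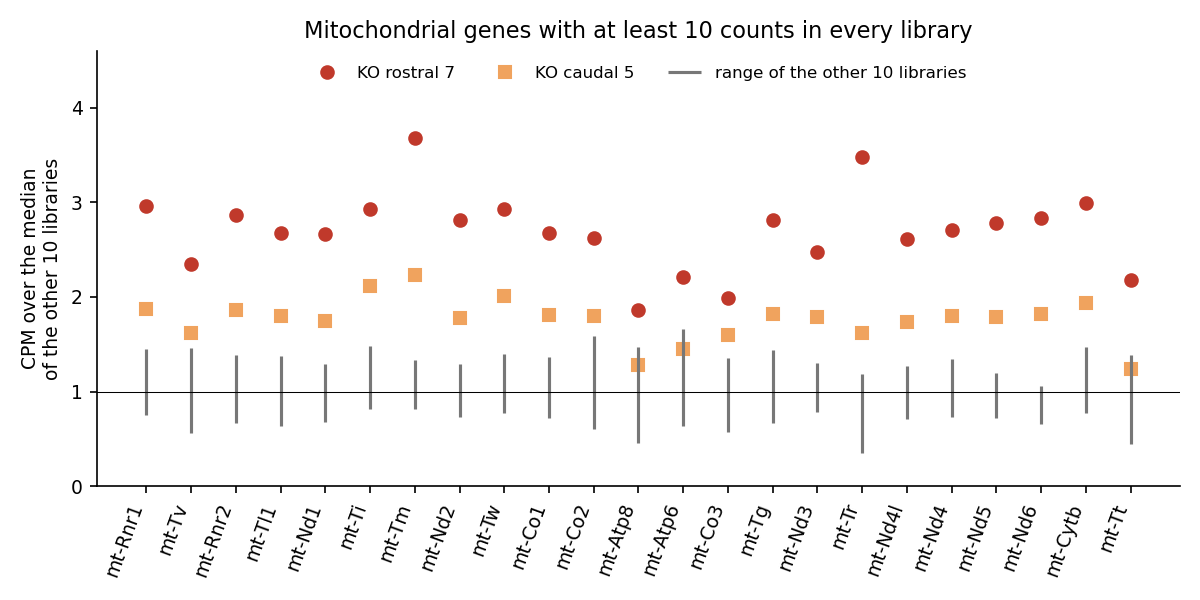
CPM of each chrM gene with at least 10 counts in every library, relative to the median of the other 10 libraries (vertical axis, fold), for knockout rostral 7 (circles) and knockout caudal 5 (squares); grey lines give the range of the other 10 libraries and the horizontal line marks 1. Every circle lies above the grey line of its gene, and the squares do so for all genes except mt-Atp8, mt-Atp6 and mt-Tt.

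The mitochondrial share was also compared between single libraries, as a description. Between the libraries of the 6 matched pairs the mitochondrial share lay 1.00 to 1.52 times apart (median 1.10), against 1.21 to 2.47 times (median 1.45) between the 6 titled partners and 1.09 to 3.45 times (median 1.56) between the 18 other pairs of the same genotype. All 6 matched pairs are neighbours in the order of deposit. The 4 neighbours of the same genotype that did not match lay 1.26 to 3.45 times apart (median 1.62), a range that overlaps that of the matched pairs. No test was made, since a library enters several pairs.

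The genotype comparison used edgeR's quasi-likelihood test on all genes with Benjamini-Hochberg adjustment, calling an adjusted p under 0.05. In rostral libraries, 0 of 13 protein-coding, 0 of 2 rRNA and 0 of 9 tested tRNA genes were called, and 0 of all 17131 genes (0%), with 180 genes at an unadjusted p under 0.05 and 0 of the mitochondrial ones among them. DESeq2 called 4 genes, none of chrM, where 1 gene of chrM had an unadjusted p under 0.05. The estimated log2 fold changes of knockout over control were above 0 for 13 of 13 protein-coding genes, with a median of 0.78 (0.25 to 1.06), beside a median of 0.00 over all genes tested. Without knockout rostral 7 that median was -0.08. Without control rostral 1 and 3, the libraries with Xist and Y-linked transcripts together, the median was 0.37, with control rostral 9 the only control left. The groups overlapped for all 24 mitochondrial genes tested, where 6.21% of all genes did not overlap (1.45% higher and 4.75% lower in knockout).

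The single genes of the rostral comparison show how wide the errors were. mt-Co1 stood at 6380, 5972 and 20867 CPM in knockout rostral 5, 2 and 7, against 5586, 5749 and 8431 CPM in control rostral 1, 3 and 9. Its log2 fold change was 0.79 ± 0.52 (SE, edgeR, adjusted p = 1). mt-Cytb stood at 4865, 4553 and 14872 CPM in knockout rostral 5, 2 and 7, against 3831, 4144 and 5569 CPM in control rostral 1, 3 and 9, with a log2 fold change of 0.89 ± 0.49 (SE). Both genes had only knockout rostral 7 above all control libraries. Estimates for the other genes were 0.74 ± 0.54 (mt-Nd1), 0.81 ± 0.52 (mt-Nd2), 0.60 ± 0.46 (mt-Nd3), 0.84 ± 0.49 (mt-Nd4), 0.82 ± 0.49 (mt-Nd4l) and 0.78 ± 0.52 (mt-Nd5) on the log2 scale (SE). Those of the near-empty rows were 0.65 ± 0.58 (mt-Co2), 0.44 ± 0.54 (mt-Co3), 0.53 ± 0.53 (mt-Atp6) and 0.25 ± 0.63 (mt-Atp8), and with copies added 0.80 ± 0.52, 0.63 ± 0.45 and 0.59 ± 0.48 for the first 3. For the rRNA genes they were 0.88 ± 0.51 (mt-Rnr1) and 0.73 ± 0.58 (mt-Rnr2).

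In caudal libraries, 0 of 13 protein-coding, 0 of 2 rRNA and 0 of 10 tested tRNA genes were called by edgeR, against 8 of 16964 genes (0.0472%) in all, 0.0354% higher and 0.0118% lower, and 0 mitochondrial genes had an unadjusted p under 0.05, as 871 of all genes (5.13%) did. DESeq2 called 75 genes, and none of chrM there either. The median log2 fold change of the protein-coding genes was 0.20 (-0.07 to 0.41), with 12 of 13 above 0, and it was -0.08 without knockout caudal 5. One of the 13, mt-Atp8, had knockout libraries above all control libraries, where 4% of all genes did in that direction, 6.14% in the other and 10.1% in either. mt-Co1 stood at 14059, 7929 and 8674 CPM in knockout caudal 5, 2 and 7, against 7650, 9695 and 10643 CPM in control caudal 1, 3 and 9, so that the groups overlapped, with a log2 fold change of 0.14 ± 0.24 (SE). Estimates (± SE) were 0.16 ± 0.26 for mt-Cytb, 0.18 ± 0.22 for mt-Nd1, 0.19 ± 0.23 for mt-Nd2, 0.20 ± 0.23 for mt-Nd3, 0.22 ± 0.23 for mt-Nd4, 0.22 ± 0.21 for mt-Nd4l and 0.31 ± 0.21 for mt-Nd5. They were 0.11 ± 0.26 for mt-Co2, 0.26 ± 0.21 for mt-Co3, -0.07 ± 0.24 for mt-Atp6, 0.40 ± 0.24 for mt-Atp8, 0.06 ± 0.31 for mt-Rnr1 and 0.21 ± 0.25 for mt-Rnr2.

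Sums of both parts per titled embryo gave shares of 2.40%, 3.60% and 5.19% in knockout embryos 2, 5 and 7, against 2.24%, 2.59% and 3.22% in control embryos 1, 3 and 9. Knockout embryos 5 and 7 exceeded all controls, and each contains 1 of the 2 high libraries. By edgeR, 0 of 26 mitochondrial genes tested were called, against 6 of 18935 genes (0.0317%) in all, 0.0106% higher and 0.0211% lower. An unadjusted p under 0.05 was found for 3, namely mt-Nd6, mt-Tm and mt-Te, and for 643 of all genes (3.4%). DESeq2 called 32 genes, 0 of them on chrM. The median log2 fold change of the 13 protein-coding genes was 0.47 (0.21 to 0.75), with 13 of 13 above 0 and an all-gene median of 0.00. With embryos 7 and 5, which contain the 2 high libraries, left out whole, it was -0.14, from knockout embryo 2 alone against 3 controls. With control embryos 1 and 3 left out whole it was 0.22, from 3 knockouts against control embryo 9 alone. Leaving out embryo 2, the lowest of the knockouts, gave 0.71 and an unadjusted p under 0.05 for 23 of 27 mitochondrial genes, none of them called, and for 2131 of all 19363 genes (11%). Leaving out the knockout of lowest share raises the knockout levels of these same genes, so the 23 are no separate support for a genotype difference. mt-Te, a glutamic acid tRNA, was the 1 of 26 tested mitochondrial genes whose sums did not overlap. Of all genes, 3.07% were higher without overlap, 5.22% lower and 8.29% either. mt-Te averaged 0.313 ± 0.0728 CPM in knockout and 0.181 ± 0.0402 CPM in control embryos (SD, n = 3 each). These levels rest on only 2.5 to 16.5 counts per library.

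**Figure D4:**
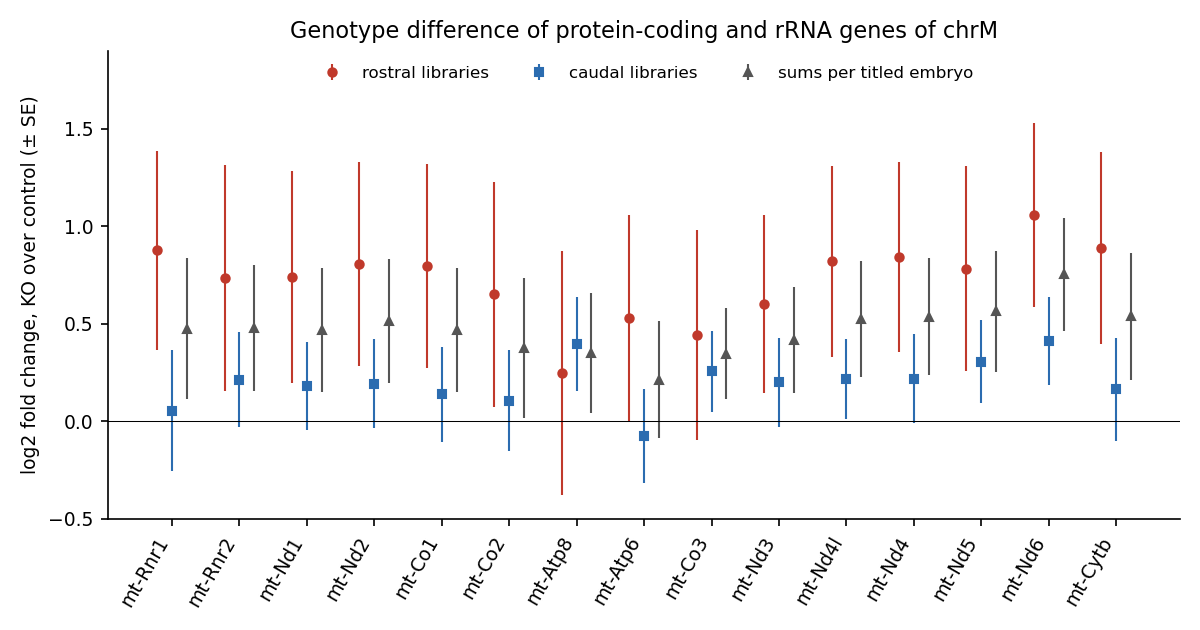
Log2 fold change of knockout over control (vertical axis; points with bars of 1 SE, edgeR, 3 against 3) for the 2 rRNA and 13 protein-coding genes of chrM, in rostral libraries (circles), caudal libraries (squares) and sums per titled embryo (triangles). All 15 rostral estimates are above 0 with wide errors, the caudal ones lie from -0.07 to 0.41, and none was called.

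mt-Nd6 had the smallest p of the protein-coding genes in each of these comparisons, and it is the 1 of 13 read from the opposite strand (chrM:13552-14070, minus strand). Its product is a membrane subunit of complex I, and it overlaps mt-Nd5, on the other strand, by 14 bases. mt-Nd6 stood at 88.3, 78.8 and 248 CPM in knockout rostral 5, 2 and 7, against 57.6, 61.4 and 86.8 CPM in control rostral 1, 3 and 9. In caudal libraries it stood at 159, 90.1 and 90.4 CPM in knockout 5, 2 and 7, against 74.4, 89.2 and 93.0 CPM in control 1, 3 and 9. Levels overlapped between the genotypes in both parts. Its log2 fold change was 1.06 ± 0.47 in rostral libraries, 0.41 ± 0.23 in caudal libraries and 0.75 ± 0.29 in sums per titled embryo (SE), with an edgeR adjusted p of 1 in each.

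Taken as a share of the protein-coding mitochondrial counts of its own library, mt-Nd6 separated the genotypes within each part. The share was 0.422%, 0.404% and 0.375% in knockout rostral 5, 2 and 7, against 0.324%, 0.339% and 0.326% in control rostral 1, 3 and 9. Caudal libraries gave 0.364%, 0.365% and 0.336% in knockout 5, 2 and 7, against 0.319%, 0.311% and 0.288% in control 1, 3 and 9. All 3 knockout libraries lay above all 3 control libraries of the same part, also outside the 2 high libraries. No test is given for this separation, since the gene was picked for it, and libraries that matched each other by their other transcripts, such as knockout rostral 5 and 2, are counted separately. Over all 12 libraries the ranges overlapped slightly, from 0.336% to 0.422% in knockout and from 0.288% to 0.339% in control libraries. The share also depends on how well the mRNA capture took up mt-Nd6 beside the other genes, which was not measured. mt-Nd6 was the only one of the 13 genes on the same side without overlap in both parts, with and without the copies added. Separation within 1 part was more common. By the chrM rows alone, 1 of 13 was higher and 3 lower in rostral knockouts, and 1 higher and 1 lower in caudal ones. With copies added these numbers were 3 and 2 in rostral and 1 and 0 in caudal libraries.

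Other genes varied in share without following genotype in both parts. In rostral libraries the knockout shares of mt-Atp8, mt-Atp6 and mt-Co3 lay below those of control, and in caudal libraries that of mt-Co1 did, from the chrM rows alone. With copies added, mt-Nd4l and mt-Cytb lay above control and mt-Atp6 and mt-Atp8 below it in rostral libraries, and 0 genes besides mt-Nd6 were without overlap in caudal libraries. mt-Nd3 stood out in 1 library, with 2.47% in control rostral 1 against 1.67% to 1.95% in the other 11. For mt-Nd5, control caudal 3 and 9 were low at 7.14% and 6.72%, against 7.63% to 8.59% in the other 10 libraries. mt-Co1 held 30.5% to 33.8% and mt-Cytb 20.2% to 23.3% of the protein-coding counts.

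**Figure D5:**
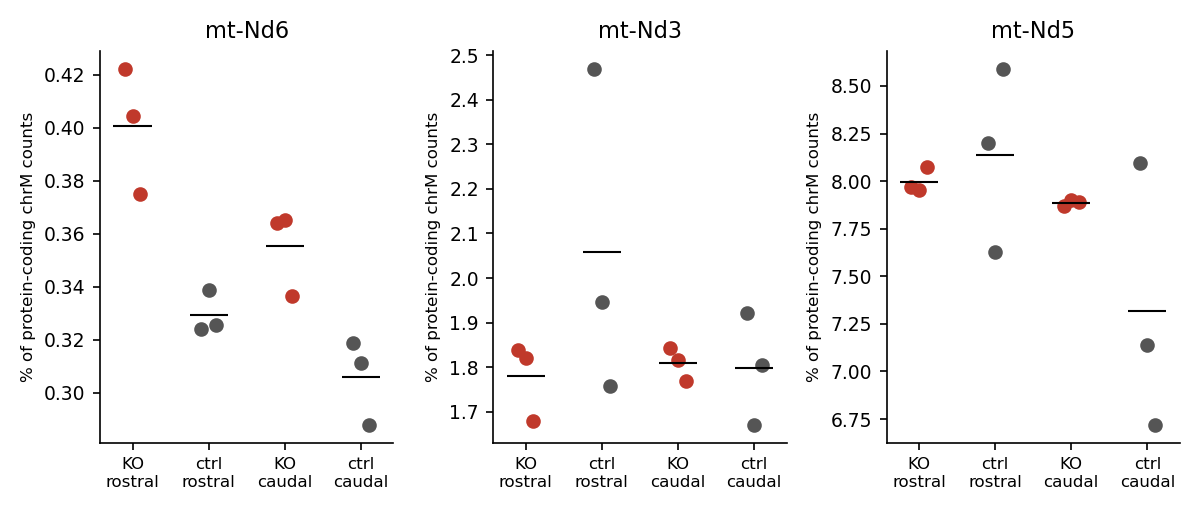
Share of mt-Nd6, mt-Nd3 and mt-Nd5 in the protein-coding chrM counts of a library (%, vertical axes, which do not start at 0) by group; each point is 1 library, red for knockout (KO) and grey for control (ctrl), and lines are group means (n = 3). For mt-Nd6 all knockout points lie above all control points of the same part, while mt-Nd3 and mt-Nd5 overlap and have single control libraries apart.

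Caudal libraries were compared with rostral ones over both genotypes. By edgeR, 0 of 25 mitochondrial genes tested were called, and 0 of 17734 genes in all (0%), with 1765 genes but 0 mitochondrial ones at an unadjusted p under 0.05. DESeq2 called 67 genes and 0 of chrM. The median log2 fold change of caudal over rostral was 0.17 (0.03 to 0.48) for the protein-coding genes, with 13 of 13 above 0. Without knockout rostral 7 the median was 0.58, and 16 of 25 mitochondrial genes and 2586 of all 18061 genes (14.3%) had an unadjusted p under 0.05. That library had the highest mitochondrial share, so leaving it out lowers the rostral levels of these same genes. The 16 genes are therefore no separate support for a difference between parts. Among the controls alone, the mitochondrial share was 2.53%, 3.17% and 3.53% in caudal 1, 3 and 9, and 1.96%, 1.97% and 2.92% in rostral 1, 3 and 9, which overlap. Largest was mt-Atp8, with 1.06 ± 0.169 CPM in caudal and 0.764 ± 0.484 CPM in rostral libraries (SD, n = 6 each) and a log2 fold change of 0.48 ± 0.35 (SE, adjusted p = 0.682). Without control rostral 1 and 3, the median of the protein-coding genes was 0.00, on a log2 scale, with control rostral 9 the only control rostral library.

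Estimates for the other genes, caudal over rostral on the log2 scale (± SE), were 0.21 ± 0.32 for mt-Co1, 0.26 ± 0.35 for mt-Co2, 0.41 ± 0.31 for mt-Co3, 0.32 ± 0.31 for mt-Atp6 and 0.11 ± 0.31 for mt-Cytb. Complex I genes gave 0.16 ± 0.32 (mt-Nd1), 0.09 ± 0.31 (mt-Nd2), 0.10 ± 0.28 (mt-Nd3), 0.17 ± 0.30 (mt-Nd4), 0.17 ± 0.29 (mt-Nd4l), 0.05 ± 0.31 (mt-Nd5) and 0.03 ± 0.29 (mt-Nd6). For mt-Rnr1 and mt-Rnr2 they were 0.11 ± 0.33 and 0.19 ± 0.35. Each estimate but those of mt-Atp8, mt-Co3 and mt-Atp6 was smaller than its SE. Of the most abundant tRNA genes, mt-Tl1 gave 0.07 ± 0.34, mt-Tw 0.01 ± 0.33, mt-Tm -0.21 ± 0.33 and mt-Ti 0.11 ± 0.31.

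Whether the genotype difference itself differed between parts was tested as an interaction (knockout minus control in caudal, less the same in rostral). Called by edgeR were 0 of 25 mitochondrial genes and 0 of 17734 genes in all (0%), with 486 genes and 0 mitochondrial ones at an unadjusted p under 0.05, and DESeq2 called 0 genes of chrM. The median of the protein-coding genes was -0.60 (-0.72 to 0.16) on the log2 scale, with 12 of 13 below 0. It was 0.26 without knockout rostral 7, 0.05 without both high libraries and -0.20 without control rostral 1 and 3. mt-Co1, for example, gave -0.65 ± 0.63 and mt-Nd6 -0.64 ± 0.58 (SE).

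The estimates of the 4 tRNA genes of highest level were above 0 in each genotype comparison, and none was called. In sums per titled embryo, mt-Tl1 gave a log2 fold change of 0.48 ± 0.33, mt-Tw of 0.46 ± 0.33, mt-Tm of 0.88 ± 0.34 and mt-Ti of 0.59 ± 0.27 (SE, edgeR, adjusted p = 1 each). mt-Tm averaged 8.63 ± 3.74 CPM in knockout and 4.81 ± 0.685 CPM in control embryos (SD, n = 3 each), which overlap. In rostral libraries these genes gave 0.70 ± 0.56, 0.70 ± 0.53, 1.13 ± 0.51 and 0.74 ± 0.51, and in caudal libraries 0.24 ± 0.23, 0.17 ± 0.29, 0.53 ± 0.33 and 0.41 ± 0.28, in the same order.

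Nuclear genes for mitochondrial proteins had list medians near 0 in each comparison. The 10 nuclear lists hold subunits of complexes I to V, factors of mitochondrial DNA maintenance and transcription, RNA processing factors, ribosomal proteins of both subunits and regulators of mitochondrial biogenesis. Of 222 members tested in sums per titled embryo, 0 rose and 0 fell by edgeR, and 6 (2.7%) had an unadjusted p under 0.05, against 3.4% of all genes. List medians of the log2 fold change lay between -0.03 and 0.09, against 0.47 for the 13 mitochondrial genes and 0.00 over all genes. The 37 nuclear subunits of complex I, which assemble with the 7 mt-Nd products, had a median of 0.07 with 35 of 37 above 0. Members with the smallest p there were Ndufa13, at 53.1 ± 6.59 CPM in knockout and 47.1 ± 1.51 CPM in control embryos, and Ndufb2, at 21.02 ± 1.77 and 19.1 ± 1.46 CPM (SD, n = 3 each). The complex IV list, the partners of mt-Co1, mt-Co2 and mt-Co3, had a median of 0.09 with 13 of 15 above 0, and its Cox8a gave 0.16 ± 0.10 (SE).

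Members of other lists with the smallest p in the sums were Mrpl55, Myc, Mterf1b, Fastkd1, Mrps12 and Twnk. Mrpl55, a protein of the large mitochondrial ribosomal subunit, averaged 11.98 ± 0.826 CPM in knockout and 9.37 ± 0.623 CPM in control embryos (SD, n = 3 each; log2 fold change 0.38, edgeR adjusted p = 1). Myc, a growth regulator, averaged 18.4 ± 2.04 CPM in knockout and 24.4 ± 0.811 CPM in control embryos (log2 fold change -0.38, edgeR adjusted p = 0.994). Mterf1b, a factor of the mitochondrial termination factor family, stood at 1.48 ± 0.158 CPM in knockout and 1.02 ± 0.179 CPM in control embryos. Twnk, the mitochondrial DNA helicase, stood at 40.4 ± 0.366 CPM in knockout and 37.7 ± 0.857 CPM in control embryos, and Fastkd1, an RNA-binding protein of mitochondria, at 14.7 ± 0.546 and 17.2 ± 1.31 CPM. None of these was called. Over all 222 members, the sums of 13 (5.86%) did not overlap between genotypes, against 8.29% of all genes.

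In the other comparisons 0 nuclear members were called either. In rostral libraries 219 were tested, with list medians from -0.09 to 0.13, in caudal libraries 220, from -0.01 to 0.10. Among caudal libraries Mterf1a had the smallest p of its list, at 4.40 ± 0.437 CPM in knockout and 2.71 ± 0.368 CPM in control libraries (SD, n = 3 each; log2 fold change 0.71, edgeR adjusted p = 0.684). Caudal against rostral, the 222 tested members gave list medians from -0.09 to 0.11. The complex I list there had a median of -0.08 with 32 of 37 below 0, while the 13 protein-coding mitochondrial genes were all above 0. Ndufv3 of complex I averaged 33.1 ± 1.62 CPM in caudal and 36.99 ± 1.41 CPM in rostral libraries (SD, n = 6 each) without overlap (edgeR adjusted p = 0.46), the 1 of 222 members (0.45%) that did so, against 0.361% of all genes. In the interaction, list medians ran from -0.10 to 0.14.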

How the data were processed

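Files of 12 libraries were used, 3 per group. Per the labels' protocols, mRNA was captured from total RNA, and the rostral and caudal part of each cortex were separate samples. STAR 2.7.8a, featureCounts 2.0.3 and GRCm39 are named in the submitters' processing notes. The file headers name GENCODE vM28 and show that read pairs were counted by strand (reverse), with fractions for reads that align to several places or overlap several genes. The authors' deposited values are thus estimated counts (expected counts) per gene, made with no normalization, in which near-identical gene copies cannot be separated. Totals per library are 25223733 to 30383672, so a gene of 10 counts stands near 0.4 CPM and its precision is limited by counting.

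Rounded counts were fitted over the whole table in R 4.3.3 with edgeR 4.0.16 (TMM, filterByExpr, robust quasi-likelihood, Benjamini-Hochberg adjustment over all genes, adjusted p under 0.05). An SE is the log2 fold change over the square root of F. CPM and shares come from the unrounded counts and library totals; members below the low-count filter (13, 12, 11, 12 and 12 of 37 in the rostral, caudal, summed, part and interaction fits, all tRNA genes) have no test. Alternatives were DESeq2 1.42.0, other scalings, no filter, libraries left out, blocks, and copies added; the last and the fits without the 2 high libraries were chosen after seeing the data. Fits were tested on simulated data. Copies were found with BLAST 2.17.0 among vM21 transcripts at 95% identity over 200 bases or more, and Gm10222 and the copies outside chromosome 1 were found after values were seen. All 37 chrM genes have the same coordinates in vM21 and in the files. Nothing says that libraries beyond the titled numbers come from separate animals, so p-values measure the spread between these samples.

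The members, lists, markers and tests were chosen with earlier results of these data known. Named were all 13 protein-coding and both rRNA genes, the 4 tRNA genes of highest mean CPM, copies, and from each nuclear list the called or the 2 of smallest p, not all of which are printed; mt-Te was named after its values were seen. Title numbers were checked as pairs over 1000 genes of at least 10 CPM: deviations from group means correlated at -0.681 to -0.164 between titled partners, with 0 of 6 above 0.1.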

Additional observations from a re-analysis of the deposited data

How the results depend on the processing

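No chrM gene was called in any of the 5 comparisons under the 85 alternatives run, and of 1615 alternative estimates for the 19 named chrM genes 1478 kept their sign; the lowest adjusted p was 0.0514 (mt-Ti, sums, no filter). Genes called over the whole table depended on the tool and filter. With DESeq2 the counts were 4 (rostral), 75 (caudal), 32 (sums) and 67 (caudal against rostral), and with no filter 2, 57, 113 and 2. Treating the 12 libraries as separate samples gave 3 in place of the sums. Leaving out 1 replicate at a time gave 2 to 8 genes in caudal libraries, 2 to 21 in the sums, 0 to 10 between parts and 0 to 6 in the interaction. The median log2 fold change of the protein-coding genes then ran from -0.0759 (without knockout rostral 7) to 1.09 in rostral libraries. In the interaction it ran from -0.89 to 0.26, and it was 0.0507 there without the 2 high libraries. In the sums it was -0.14 with embryos 7 and 5 left out whole, which leaves knockout embryo 2 alone. With copies added, the mean mitochondrial share was 6.36% in knockout rostral, 5.95% in knockout caudal, 3.86% in control rostral and 5.21% in control caudal libraries. Without control rostral 1 and 3 the median was 0.37 in rostral libraries, 0.22 in the sums and -0.20 in the interaction; neither library is caudal, so the caudal comparison has no such value.

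The titled embryo as a replicate block, which the pairing check does not bear out, gave medians of 0.29 between parts and -0.36 in the interaction with 0 chrM genes called; the cause of these shifts was not tested. Depth limits the tRNA genes most, 10 of which stayed under 10 counts in every library.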
